A study of Mus musculus with 12 samples.

Results

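The widest accessible domains of the series were the merged regions of open chromatin that spanned 4000 bp or more. Peaks that overlapped or touched in any of the 12 lists (chromosomes 1-11 and 13-19) were merged, regions with a peak in at least 2 lists were kept, and members were chosen by their merged width alone: 1738 of the 71366 regions reached that width, which is 2.44% of the regions and 12.1% of their merged bases. The peaks came from ATAC-seq, in which a transposase inserts sequencing adapters into DNA that nucleosomes leave free, of RAW264.7 cells, an established mouse macrophage line. The libraries formed 4 groups of 3 from stable lines with doxycycline-inducible GFP or Nur77, all of them, controls included, induced with 1 µg/ml doxycycline for 18 h: the GFP line untreated (GFP_Ctrl), the GFP line with 500 ng/ml lipopolysaccharide (LPS) for 1 h (GFP_LPS), and the Nur77 line without (Nur77_Ctrl) or with the same LPS treatment (Nur77_LPS). Values of 3 libraries are given in the order of replicates 1, 2 and 3. The labels do not say whether replicates were separate cultures or whether a line was 1 clone, so the p-values measure the spread between these libraries, which may be technical, and the effect of Nur77 cannot be told apart from other differences between the lines.

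As background, most regulatory elements appear as short peaks, and a long run of accessible DNA arises where several promoters and enhancers lie close together or where a heavily transcribed gene stays open along its body. LPS, a component of bacterial outer membranes, binds Toll-like receptor 4 on macrophages and within minutes activates NF-kB, AP-1 and, somewhat later, interferon regulatory factors, which open enhancers of cytokine and chemokine genes. Nur77, encoded by Nr4a1, is an orphan nuclear receptor that macrophages induce early after such a stimulus. Nr4a1 itself overlapped none of the domains.

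The sequences before 4 transcription starts inside domains are shown as examples, each with a match to a motif sought there. They come from chemokine domains that widened with LPS (Cxcl10, Cxcl2), a wide domain that kept its width (Mcl1) and a domain that differed between the lines (Bdp1). Each is the 120 bases before the start, 5′ to 3′ on the gene's strand, from RefSeq on GRCm38.p6, with motif matches in capitals. The windows are chr5:92348890-92349009 on the minus strand for Cxcl10, chr5:90903779-90903898 on the plus strand for Cxcl2, chr3:95658601-95658720 on the plus strand for Mcl1 and chr13:100104071-100104190 on the minus strand for Bdp1. Capitals mark the NF-kB motif for both chemokines, the GC box (GGGCGG on either strand) for Mcl1 and the cyclic AMP response element (TGACGTCA) for Bdp1. In the 250 bases before the start, the NF-kB motif was found for 4 of 40 starts in domains wider with LPS. Over 1201 starts in domains, the GC box was found for 64.1% and the response element for 1.75%. The starts of Gtf3c5 and Entpd6, also in domains, had no GC box, and that of Atf3 had no such response element.
Cxcl10: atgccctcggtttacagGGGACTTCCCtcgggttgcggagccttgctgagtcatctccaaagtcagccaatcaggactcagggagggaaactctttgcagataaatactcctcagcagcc
Cxcl2: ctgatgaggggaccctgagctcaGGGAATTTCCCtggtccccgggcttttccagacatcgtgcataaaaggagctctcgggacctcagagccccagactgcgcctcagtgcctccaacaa
Mcl1: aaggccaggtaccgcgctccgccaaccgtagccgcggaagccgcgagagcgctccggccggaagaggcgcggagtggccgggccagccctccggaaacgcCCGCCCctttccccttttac
Bdp1: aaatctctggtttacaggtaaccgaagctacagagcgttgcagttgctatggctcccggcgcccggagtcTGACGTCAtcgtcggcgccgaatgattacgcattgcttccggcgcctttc

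The median merged width of the domains was 5101 bp, against 901 bp over all regions. Of the domains 917 reached 5 kb, 137 reached 10 kb and 14 reached 20 kb. The 3 members just inside the limit, in Slc4a5, at Fance and beside Cpd, were 4000 bp wide, and the 3 regions just outside it, at Pldi, Fam120a and 4833428L15Rik, were 3999 bp wide. A merged width adds up what any library covered, and 409 domains held no single peak of 4000 bp in any list, 1329 held 1 in at least 1 list and 87 held 1 in every list. The values below are therefore given per library as covered length, the number of bases of the domain that lie inside that library's peaks.

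The lists differed in background height, a stand-in for depth read from the grid of the deposited fold values. It ran from 0.402 to 1.45 reads, with GFP_LPS replicate 1 (0.411), GFP_LPS replicate 3 (1.45) and Nur77_Ctrl replicate 2 (0.402) standing apart, and the lists held between 34223 (Nur77_Ctrl replicate 2) and 76238 (GFP_LPS replicate 3) peaks. In those 2 libraries the median share of a domain's merged width that was covered was 55.1% and 90.8%, the lowest and highest of all, and GFP_LPS replicate 3 had the greatest covered length in 716 of the 1738 domains. Between 1646 and 1728 domains held a peak in each library, and the median covered length per domain ran from 2950 to 4456 bp. All 8 macrophage marker genes had a region in all 12 lists and 5 of them (Csf1r, Cd68, Spi1, Mpeg1 and Tyrobp) overlapped a domain, whereas of 6 markers each for other cell types 1 of B cells (Cd79a) and 0 of neurons, fibroblasts, epithelial cells and T cells overlapped one. Of those other markers, 3 of T cells, 2 of B cells, 2 of neurons, 2 of fibroblasts and 0 of epithelial cells had a region in all lists.

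Of the domains 1592 (91.6%) held a peak in all 12 lists, against 33.5% of the narrower regions. Each summit reported inside a peak was counted once. A domain had a median of 4.08 summits per library, against 1.08 in narrower regions of all 12 lists, and the largest number was 77. Neighbouring summits of 1 library lay a median of 684 bp apart (quartiles 410 and 1043 bp) in domains and 596 bp apart in narrower regions. Across the 1738 domains the mean number of summits and the mean covered length correlated with r = 0.947, a description in which both values come from the same peaks. The authors' fold over background was taken at the highest summit of a region in each library and averaged over libraries. Its median was 59.5 in the domains of all 12 lists and 27.1 in the narrower regions of all 12 lists. A region with more summits has more values to take the highest from, so these medians do not compare typical heights. By the same measure 209 domains had a mean fold percentile under 50 within their lists, so some were long but low.

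Domains often lay at genes and their starts, though a longer region also has more room to hold one. A coding gene was overlapped by 1436 domains (82.6%, against 57.8% of narrower regions), 110 overlapped only noncoding genes and 192 overlapped no gene. A coding transcription start lay inside 839 of the 1708 domains on chromosomes with a start table (49.1%), against 10.8% of all narrower regions and 28.8% of those in all 12 lists. In the 711 domains with 1 start, the domain reached a median of 2314 bp upstream and 2923 bp downstream of it, and 58.5% were longer downstream, close to the 61.0% of narrower regions in all 12 lists. In 154 domains whole coding genes, 188 in all, lay inside the accessible stretch. Domains also lay near each other: 511 were within 10 kb of another, in 225 clusters, of which 10 held 4 or more. The largest cluster, 7 domains over 71145 bp, lay at Fnip2, which encodes a folliculin-interacting protein, and others lay at Hmga2, a chromatin protein, Cd44, the hyaluronan receptor, the inflammasome gene Nlrp3, and the Tnf, Lst1 and Aif1 neighbourhood.

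The widest domain, chr19:5808243-5852062, was 43820 bp and covered the whole of Neat1, the long noncoding RNA that builds nuclear paraspeckles, and the end of Frmd8. Its covered length was 43576, 43364 and 42107 bp in GFP_Ctrl, 33793, 37228 and 42463 bp in GFP_LPS, 41455, 39482 and 41195 bp in Nur77_Ctrl and 40635, 37313 and 33290 bp in Nur77_LPS. The groups overlapped, and neither LPS change passed the test (log2 change -0.15 ± 0.10 SE, limma adjusted p = 0.63, in the GFP line and -0.12 ± 0.10, adjusted p = 0.75, in the Nur77 line). It held 77 summits in GFP_Ctrl replicate 3, the most of any domain. Malat1, the abundant nuclear RNA next to Neat1, had its own domain of 15021 bp. The domains at Mapkapk2 and at Gtf3c5 and Cel, also among the 15 widest, changed with LPS and are described below. Hmcn2, which encodes a hemicentin, had a domain of 33556 bp whose covered length ran from 11845 bp in GFP_LPS replicate 1 to 31493 bp, and the domain of Mcl1, the anti-apoptotic BCL2 family gene, and Adamtsl4, chr3:95656660-95690154, ran from 20458 to 31411 bp with overlapping groups. Gpnmb, a transmembrane glycoprotein of macrophages and osteoclasts, had 28249 bp.

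**Figure D1:**
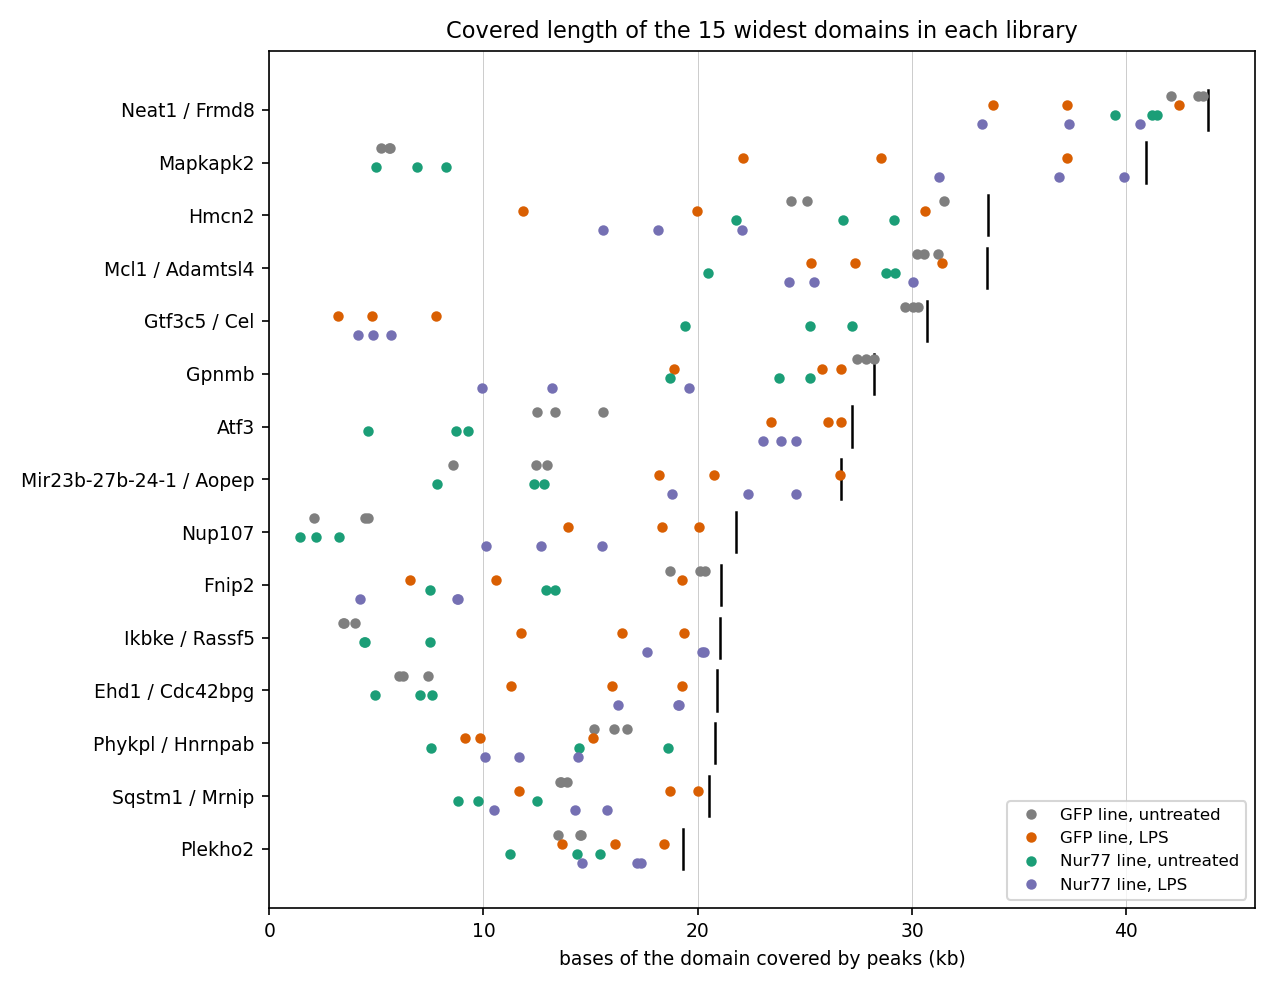
Covered length (kb, horizontal axis) of the 15 widest domains in each of the 12 libraries; each point is 1 library, coloured by group, and the black tick is the merged width. Neat1 is covered over at least 33290 bp in every library, and Mapkapk2 is long only in LPS libraries and Gtf3c5 / Cel only in untreated ones.

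Domains differed in how steady their length was across libraries. Over the 1592 domains in all lists the longest library exceeded the shortest by a median ratio of 1.85 (quartiles 1.49 and 2.72), against 2.0 in narrower regions, and the ratio was under 1.5 in 409 domains, over 4 in 210 and over 10 in 58. Among domains of 10 kb or more, the steadiest were those of the cytoskeletal actin gene Actb (14685 to 16580 bp, ratio 1.13) and of Junb, an AP-1 subunit (11779 to 13337 bp, ratio 1.13). Domains of Cirbp and Midn (1.16), the cytolinker gene Plec (1.22), the actin-binding Pfn1 (1.23), the stress gene Gadd45b (1.25), Zfp36, whose product destabilises cytokine mRNAs (1.27), and Tnf (1.31) followed closely. The domain of Tnf, the gene of the cytokine TNF, also overlaps Ltb and Lta. It was already long before LPS, at 9749, 10507 and 9590 bp in GFP_Ctrl, and 10438, 11245 and 11126 bp in GFP_LPS. In the Nur77 line it covered 10153, 8587 and 10442 bp untreated and 10584, 10352 and 10603 bp with LPS, and neither change passed the test (adjusted p = 0.62 and 0.76). The most variable long domains were those of Trcg1 (41.7), Fam20c (39.3) and Oasl1 (31.6).

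The LPS comparison asked which domains lengthened or shortened within an hour of the stimulus. It was tested with limma on the log2 covered length of the 24911 regions with a peak in all 12 lists, each library centred on its median region, with Benjamini-Hochberg adjustment over all of them. In the GFP line 77 of the 1592 tested domains were wider with LPS (background over all tested regions 1.19%) and 71 were narrower (background 0.570%). In the Nur77 line 96 were wider (background 1.19%) and 40 were narrower (background 0.417%). A region that is wide in 1 treatment alone reaches 4000 bp through that treatment, so the rule favours domains that change, and nothing is read from these shares. The median log2 change of the domains was -0.01 in the GFP line and 0.02 in the Nur77 line, beside -0.02 and 0.00 for all tested regions.

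Part of the calls were made in both lines. Of the 110 domains wider in at least 1 line 63 were called in both, of the 83 narrower 28 were called in both, and 0 were called in opposite directions. The share of all tested regions called in both lines was not computed, so nothing is read from these counts. Signs were not the same throughout: Gm38414 had -1.25 (adjusted p = 0.0064) in the GFP line and 0.85 (adjusted p = 0.062) in the Nur77 line. Over the 1592 domains the LPS effects of the lines, which share no samples, correlated with r = 0.82, a description across domains that are not independent. Without the 3 libraries that stood apart, 59 were wider and 81 narrower in the GFP line, and 97 wider and 55 narrower in the Nur77 line. The narrower calls of the GFP line rested partly on single libraries: they numbered 35 without GFP_Ctrl replicate 1, 40 without GFP_Ctrl replicate 2 and 44 without GFP_LPS replicate 2. Those of the Nur77 line numbered 24 without Nur77_Ctrl replicate 1, 26 without Nur77_LPS replicate 2 and 23 without Nur77_LPS replicate 3.

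**Figure D2:**
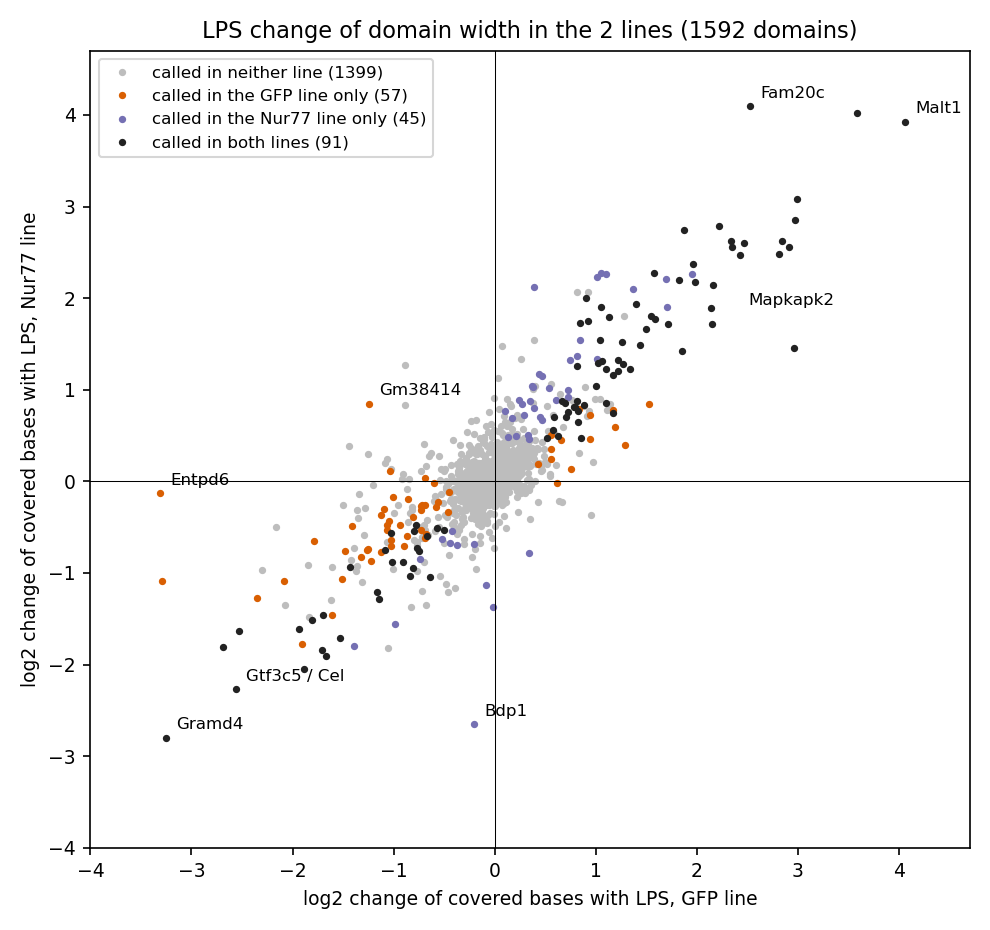
Log2 change of covered length with LPS in the GFP line (horizontal axis) and the Nur77 line (vertical axis) for the 1592 domains in all 12 lists; colours give the lines in which the change was called (91 in both, 57 in the GFP line only, 45 in the Nur77 line only). Malt1 and Fam20c lie at the upper right, Gramd4 and Gtf3c5 / Cel at the lower left, and Entpd6 and Bdp1 near an axis.

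Domains that widened also had more summits on average. In the 110 wider domains the median covered length was 2641 bp untreated and 5225 bp with LPS and the median number of summits 3.00 and 6.42, with a higher mean number of summits with LPS in 109. In 73 of them all 6 untreated libraries covered less than 4000 bp. The 83 narrower domains went from 5404 to 2721 bp and from 6.50 to 3.33 summits, with a lower mean number of summits in all 83. In 38 of these all 6 LPS libraries covered less than 4000 bp. Every LPS library had more summits than every untreated one in 37 of the wider domains, and fewer in 9 of the narrower ones. Summits and covered length come from the same peaks and the sets were chosen by covered length, so nothing further is read from the summits. The 1399 other tested domains had medians of 3860 and 3728 bp and 4.0 summits in both states. A coding start lay inside 35 of 106 wider domains (33.0%) and 41 of 83 narrower ones (49.4%).

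The largest gain in bases was at Mapkapk2, which encodes a kinase downstream of p38 that stabilises cytokine mRNAs. Its domain, chr1:131027814-131068717, covers 40904 bp of the gene's 3′ part and the intergenic stretch that ends 2.84 kb from Il10, the gene of the anti-inflammatory cytokine IL-10. Covered length was 5239, 5620 and 5614 bp in GFP_Ctrl and 22110, 28567 and 37219 bp in GFP_LPS. In the Nur77 line it was 6890, 4978 and 8271 bp untreated and 39883, 36872 and 31251 bp with LPS. Every LPS library lay above every untreated one, and the change was 5.38-fold in the GFP line (log2 2.43 ± 0.08, adjusted p = 5.2e-10) and 5.53-fold in the Nur77 line (log2 2.47 ± 0.08, adjusted p = 6.3e-10). Summits numbered 6, 11 and 9 in GFP_Ctrl and 33, 44 and 61 in GFP_LPS.

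Malt1, the paracaspase that relays signals to NF-kB, had the largest fold change in the GFP line. The domain, chr18:65475013-65492276, covered 897, 1037 and 850 bp in GFP_Ctrl and 13363, 14671 and 16923 bp in GFP_LPS. In Nur77_Ctrl it covered 1063, 641 and 969 bp and in Nur77_LPS 15226, 14390 and 10102 bp. The treatments did not overlap, with a 16.6-fold change in the GFP line (log2 4.06 ± 0.14, adjusted p = 5.2e-10) and a 15.2-fold change in the Nur77 line (log2 3.93 ± 0.14, adjusted p = 6.3e-10). A domain of Oasl1, an interferon-induced gene whose product limits translation of Irf7, covered 1454, 750 and 823 bp in GFP_Ctrl, 9087, 11417 and 13657 bp in GFP_LPS, 1148, 432 and 836 bp in Nur77_Ctrl and 12540, 12099 and 11278 bp in Nur77_LPS. It rose by 3.59 ± 0.27 (adjusted p = 1.6e-05) and 4.03 ± 0.27 (adjusted p = 5.3e-06) on the log2 scale. Fam20c, a Golgi kinase of secreted proteins, was less even: 2745, 3547 and 11712 bp in GFP_LPS against 1787, 657 and 554 bp in GFP_Ctrl (log2 2.53 ± 0.53, adjusted p = 0.037), and 10338, 8912 and 6283 bp in Nur77_LPS against 860, 470 and 298 bp in Nur77_Ctrl (log2 4.10 ± 0.53, adjusted p = 0.0019).

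A group of 28 genes held chemokine and cytokine genes and the enzyme genes Nos2, Ptgs2 and Acod1. Of the 28, 10 overlapped a domain (35.7%, against 8.14% of all coding genes). Among these, 6 overlapped a domain called wider, with none called narrower. The 6 included Acod1, and Ccl3 and Ccl4 shared a wider domain. Over all coding genes that overlapped a domain, 103 of 1626 overlapped one called wider in at least 1 line (background 6.33%) and 119 one called narrower (background 7.32%), and the counts of the gene groups below stand beside these shares. The Cxcl10 domain lies inside Art3 and holds the interferon-inducible chemokine gene whose start is shown above. It covered 693, 390 and 595 bp in GFP_Ctrl and 2379, 5381 and 5488 bp in GFP_LPS. In the Nur77 line it covered 818, 595 and 879 bp untreated and 5507, 5391 and 5218 bp with LPS. The treatments did not overlap (log2 2.97 ± 0.23 and 2.85 ± 0.23, adjusted p = 1.1e-05 in each line). At Cxcl2, a neutrophil chemokine, the domain covered 1846, 1719 and 2326 bp in GFP_Ctrl, 5664, 7120 and 7393 bp in GFP_LPS, 1455, 1200 and 1962 bp in Nur77_Ctrl and 7270, 7089 and 6093 bp in Nur77_LPS. Again no LPS library fell among the untreated ones (log2 1.82, adjusted p = 7.6e-07, and 2.19, adjusted p = 1.0e-07). The domain of Acod1, which makes itaconate, rose by 2.34 (adjusted p = 1.5e-08) and 2.62 (adjusted p = 4.0e-09). The domain at the neighbouring chemokine genes Ccl3 and Ccl4 rose by 1.22 (adjusted p = 4.6e-04) and 1.32 (adjusted p = 2.1e-04), and that of Ccl9 by 0.82 (adjusted p = 0.021) and 0.77 (adjusted p = 0.034). Tested domains of this group that did not pass were those of Tnf, above, of Lif, with 0.47 (adjusted p = 0.065) and 0.43 (adjusted p = 0.10), and of Csf3, with 0.91 (adjusted p = 0.21) and 0.72 (adjusted p = 0.37).

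Among NF-kB subunits and feedback genes, 8 of 15 overlapped a domain (53.3%) and 1 of the 8, Tnip1, overlapped a domain called wider (6.33% over all coding genes in domains). Tnip1 encodes a partner of the deubiquitinase A20. The domain over the whole peroxidase gene Gpx3 and 634 bp of Tnip1 rose by 1.87 ± 0.29 (adjusted p = 0.0064) and 2.75 ± 0.29 (adjusted p = 4.1e-04). A domain of 7399 bp within Tnip1 had 0.46 (adjusted p = 0.45) in the GFP line and 1.15 (adjusted p = 0.027) in the Nur77 line. The domains at Traf1 and Nfkb1 had no peak in Nur77_Ctrl replicate 2, the library of lowest background height, and so were not tested. The Traf1 domain, at an adaptor of TNF receptors, covered 1192, 608 and 971 bp in GFP_Ctrl, 10002, 11247 and 11227 bp in GFP_LPS, 826, 0 and 741 bp in Nur77_Ctrl and 11767, 11818 and 11314 bp in Nur77_LPS. The Nfkb1 domain, at the gene of the p50 subunit, covered 1493, 2470 and 2516 bp in GFP_Ctrl, 6255, 9279 and 12151 bp in GFP_LPS, 1184, 0 and 1706 bp in Nur77_Ctrl and 10246, 8890 and 7518 bp in Nur77_LPS. In both domains all 6 LPS libraries lay above all 6 untreated ones. The domain over the chemokine gene Ccl5 and part of Heatr9 followed the same pattern. It covered 723, 1432 and 1302 bp in GFP_Ctrl and 8588, 14187 and 14641 bp in GFP_LPS. In the Nur77 line it covered 910, 0 and 1220 bp untreated and 12871, 12364 and 12736 bp with LPS.

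**Figure D3:**
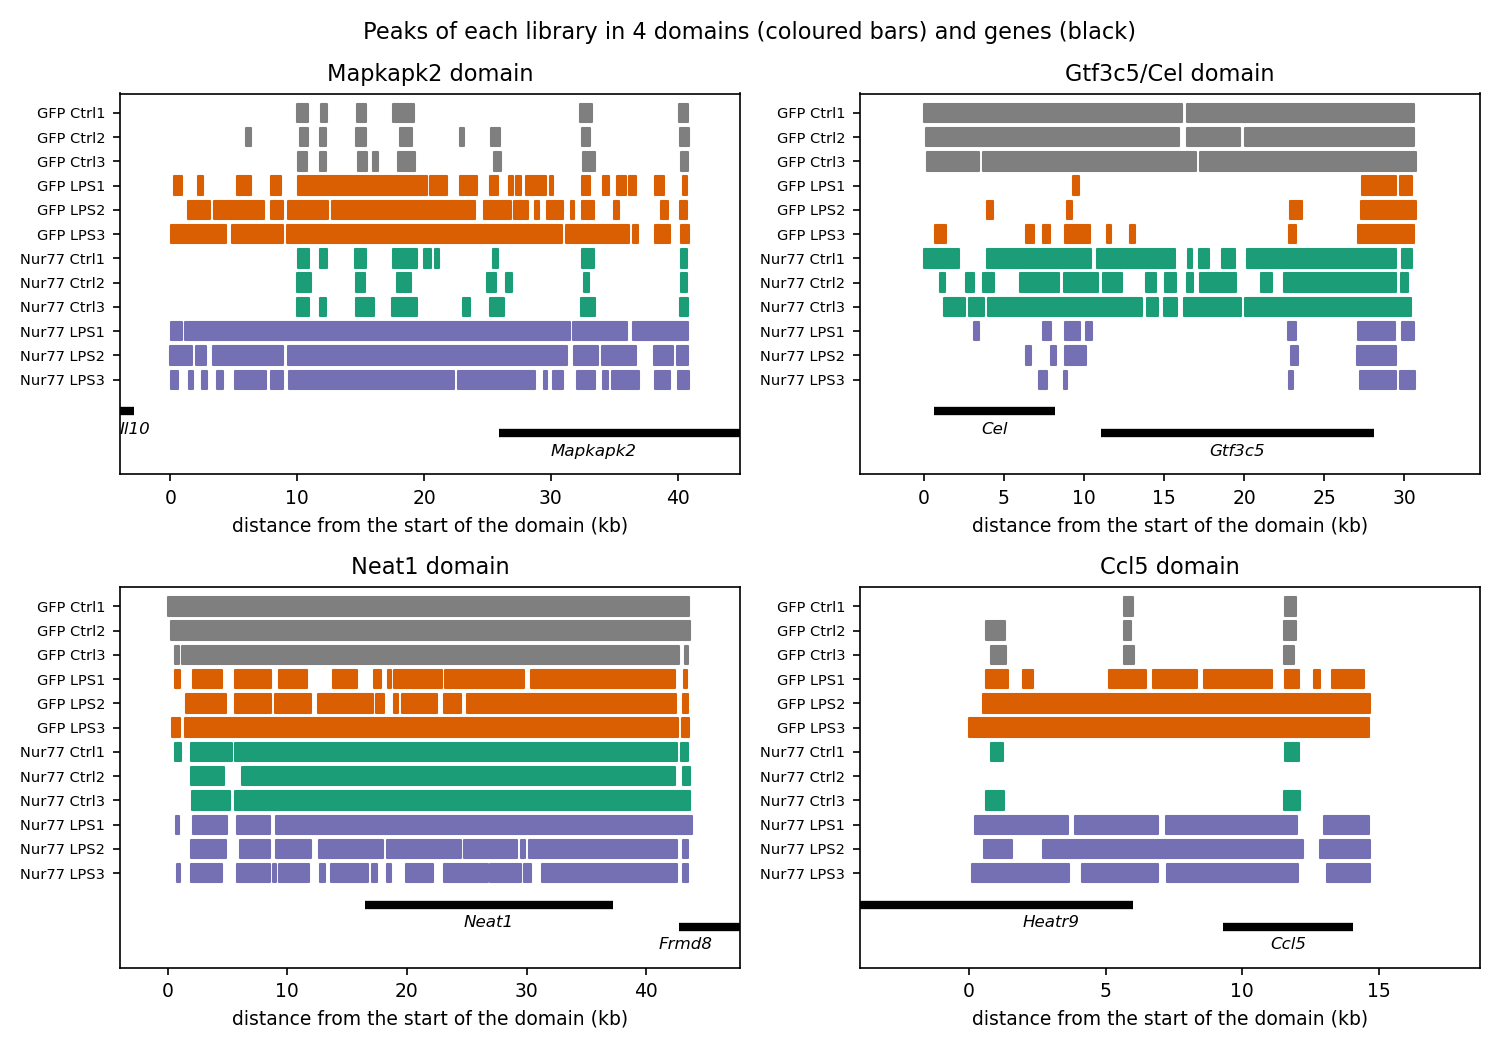
Peaks of each library (coloured bars, 1 line of bars per library) along 4 domains, with genes in black; the horizontal axis is the distance from the domain's start in kb. The longest peak at Mapkapk2 is 0.990 to 2.01 kb in untreated and 10.1 to 30.3 kb in LPS libraries, and at Gtf3c5/Cel 6.99 to 16.1 kb untreated and 2.13 to 3.51 kb with LPS. At Ccl5 it is at most 0.722 kb untreated, with no peak in Nur77_Ctrl replicate 2, and runs from 2.52 kb (GFP_LPS replicate 1, in 8 peaks) to 14.6 kb with LPS, and at Neat1 it is at least 11.3 kb in every library.

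AP-1 family genes often had domains, 9 of 14 (64.3%), and 1 of the 9, that of Atf3, was called with LPS (wider, 6.33% over all coding genes in domains). Atf3 encodes a stress-induced repressor of cytokine genes, and its domain covered 13331, 12485 and 15580 bp in GFP_Ctrl, 23437, 26086 and 26682 bp in GFP_LPS, 9259, 4610 and 8703 bp in Nur77_Ctrl and 24610, 23902 and 23039 bp in Nur77_LPS. The LPS libraries lay above all untreated ones, with log2 changes of 0.93 ± 0.15 (adjusted p = 0.0052) and 1.75 ± 0.15 (adjusted p = 2.2e-05). Among macrophage transcription factor genes 15 of 36 had a domain (41.7%), and Atf3 and the immediate-early gene Egr1 were called wider. Cebpb, a macrophage lineage factor, had 12447 bp and changes of -0.35 (adjusted p = 0.30) and 0.15 (adjusted p = 0.79), and Spi1, which encodes the lineage factor PU.1, had 4526 bp with changes of -0.35 (adjusted p = 0.30) and -0.05 (adjusted p = 0.96). Among actin and adhesion genes 14 of 20 had a domain (70.0%). Of these 4 were called wider and 2 narrower (6.33% and 7.32% over all coding genes in domains). Domains of Vasp and Itga5 were called wider in both lines and those of Lcp1 and Plek in the Nur77 line, where the GFP line had adjusted p = 0.33 and 0.056. Domains of Actg1 and Cfl1 were called narrower in the GFP line, where the Nur77 line had adjusted p = 0.59 and 0.13. The called domain of Vasp, the gene of an actin filament elongation factor, rose by 1.13 (adjusted p = 0.044) and 1.79 (adjusted p = 0.0027). Other tested domains of these genes were not called in either line. That of Vasp had 0.01 (adjusted p = 0.99) and 0.09 (adjusted p = 0.86). That of Lcp1 had 0.07 (adjusted p = 0.89) and 0.35 (adjusted p = 0.19), and that of Actg1 -0.02 (adjusted p = 0.98) and 0.01 (adjusted p = 0.99).

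Other domains with large gains lay at Ikbke, Ehd1, Nup107, Slc38a1 and Zc3h12c. The domain at Ikbke, an IKK-related kinase that activates Irf3, and Rassf5 covered 3491, 4012 and 3451 bp in GFP_Ctrl, 11765, 16447 and 19351 bp in GFP_LPS, 4421, 4479 and 7493 bp in Nur77_Ctrl and 20307, 20193 and 17631 bp in Nur77_LPS. All LPS libraries lay above all untreated ones (log2 2.14 ± 0.13, adjusted p = 2.9e-07, and 1.89 ± 0.13, adjusted p = 1.2e-06). The domain at Ehd1, an endocytic recycling gene, and Cdc42bpg rose by 1.26 ± 0.10 (adjusted p = 1.2e-05) and 1.52 ± 0.10 (adjusted p = 1.3e-06). The domain at the start of Nup107, a nuclear pore gene, rose by 2.34 ± 0.25 (adjusted p = 4.9e-04) and 2.55 ± 0.25 (adjusted p = 2.3e-04), and that of the glutamine transporter gene Slc38a1 by 2.22 ± 0.22 (adjusted p = 1.8e-04) and 2.78 ± 0.22 (adjusted p = 2.2e-05). A domain 0.275 kb from Zc3h12c, which encodes an RNase of the Regnase family, rose by 3.00 ± 0.28 (adjusted p = 1.1e-04) and 3.09 ± 0.28 (adjusted p = 8.8e-05).

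In the other direction, the domain at Gtf3c5, a subunit of the RNA polymerase III factor TFIIIC, and Cel, a carboxyl ester lipase gene, lost most of its length. This domain, chr2:28555196-28585896, covered 30287, 29674 and 30042 bp in GFP_Ctrl and 3216, 4814 and 7770 bp in GFP_LPS. In the Nur77 line it covered 25252, 19400 and 27211 bp untreated and 5696, 4839 and 4147 bp with LPS. The treatments did not overlap, and the log2 change was -2.56 ± 0.13 (adjusted p = 5.3e-08) in the GFP line and -2.27 ± 0.13 (adjusted p = 2.1e-07) in the Nur77 line. Gramd4 had a domain of 8929 bp that covered 7629, 8004 and 7531 bp in GFP_Ctrl, 470, 678 and 1519 bp in GFP_LPS, 5608, 3538 and 5116 bp in Nur77_Ctrl and 584, 743 and 663 bp in Nur77_LPS, which is -3.25 ± 0.24 (adjusted p = 1.1e-05) and -2.80 ± 0.24 (adjusted p = 3.3e-05).

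Of the surface and lysosome genes 15 of 33 had a domain (45.5%), 2 of them called wider (Cd44 and Spp1; 6.33% over all coding genes in domains) and 2 narrower (Ctsd and Gpnmb; 7.32%). The domain over Ifitm10 and the end of Ctsd, the gene of the lysosomal protease cathepsin D, covered 13965, 13319 and 12409 bp in GFP_Ctrl, 3273, 2871 and 6396 bp in GFP_LPS, 7968, 6912 and 8199 bp in Nur77_Ctrl and 3590, 2634 and 989 bp in Nur77_LPS. All LPS libraries lay below all untreated ones (-1.71 ± 0.33, adjusted p = 0.021, and -1.84 ± 0.33, adjusted p = 0.015). The Gpnmb domain covered 23811, 18714 and 25256 bp in Nur77_Ctrl and 19600, 13200 and 9938 bp in Nur77_LPS, where it fell by 0.69 on the log2 scale (adjusted p = 0.014). In the GFP line the Gpnmb change was -0.20 (adjusted p = 0.59). Each of these 2 genes also overlapped a tested domain that was not called. That of Ctsd, 11378 bp wide, had -0.25 (adjusted p = 0.24) in the GFP line and -0.16 (adjusted p = 0.55) in the Nur77 line. That of Gpnmb, 5987 bp wide, had -0.25 (adjusted p = 0.42) and 0.11 (adjusted p = 0.84). Housekeeping and abundant RNA genes had a domain in 20 of 27 cases (74.1%), none called wider and 3 narrower in 1 line each: Gapdh (-0.58, adjusted p = 0.017) and the splicing factor gene Srsf2 (-1.22, adjusted p = 0.0070) in the GFP line and the nucleolin gene Ncl (-0.67, adjusted p = 0.0092) in the Nur77 line. The Cfl1 domain, at the gene of the actin-severing protein cofilin, also overlaps Snx32. It changed by -1.06 (adjusted p = 9.7e-04) in the GFP line and -0.47 (adjusted p = 0.13) in the Nur77 line. Among cell cycle and survival genes 15 of 23 had a domain (65.2%), and the kinase gene Pim1 was the member called, wider in the Nur77 line (0.47, adjusted p = 0.024).

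The 146 domains without a peak in some list were described without a test. The share of all regions with each pattern of absence was not computed, so nothing is read from the counts of patterns. In 15 of the 146 domains all 6 LPS libraries and 0 untreated libraries had a peak. They lay at Rbm48, in Ifih1, the RNA sensor MDA5, at Nfkbib, the inhibitor IκBβ, at Ccrl2, Nlrp3, Bcl2l11 and Pcdh7, in Cd44 (2 domains), and near Mir155. The others overlapped no gene and are named after the nearest coding gene: Fap (2945 bp away), Peli1 (6834 bp), Erbin (8242 bp), Sdcbp (15655 bp) and Mefv (44074 bp). The domain named after Fap ended at chr2:62586962, just before the Ifih1 domain began at chr2:62587302. The Rbm48 domain covered 2173, 6815 and 8459 bp in GFP_LPS and 10656, 9905 and 6431 bp in Nur77_LPS. The reverse, a peak in every untreated and in 0 LPS libraries, was seen in 2 domains, a domain of 8541 bp in Kmt2d, a histone methyltransferase gene, and a domain of 4194 bp that overlaps LTO1 and the cyclin gene Ccnd1. In 2 domains, in Chd2, a chromatin remodeller gene, and Cntn4, a contactin gene, all 6 Nur77 and 0 GFP libraries had a peak, and 0 domains had the reverse. A further 69 had a peak in all LPS libraries and in 1 to 5 untreated ones, and 40 had the mirror pattern. In 92 of the 146 Nur77_Ctrl replicate 2 had no peak, and in 33 it was the only library without one, so absence there moved with that library's low background height, whose part was not tested. Over all 1738 domains 127 (7.31%) were longer in every LPS than in every untreated library (background 1.71%) and 49 (2.82%) were shorter (background 0.422%).

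Domains over microRNA genes were found for 46 of 827 hairpins, in 35 domains. The mature sequences below, from RefSeq on GRCm38.p6, are those of selected loci in or beside domains, with the seed (bases 2 to 8) in capitals. miR-27b-3p and miR-27a-3p share a seed but lie in different domains.
miR-155-5p: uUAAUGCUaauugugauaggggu
miR-27b-3p: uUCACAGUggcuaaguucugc
miR-27a-3p: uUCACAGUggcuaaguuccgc
miR-24-3p: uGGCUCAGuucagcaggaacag
miR-142a-3p: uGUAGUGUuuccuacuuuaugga
miR-21a-5p: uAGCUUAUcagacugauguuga

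miR-155, an LPS-induced regulator of inflammatory signalling, has its hairpin at chr16:84714140-84714204, 1.27 kb from the domain chr16:84715475-84725928 in Mrpl39. No untreated library had a peak in that domain, and it covered 7248, 9926 and 9793 bp in GFP_LPS and 9898, 9038 and 7857 bp in Nur77_LPS. The domain in Aopep that holds Mir23b, Mir27b and Mir24-1 covered 12434, 12950 and 8567 bp in GFP_Ctrl, 18188, 20756 and 26632 bp in GFP_LPS, 12375, 7812 and 12844 bp in Nur77_Ctrl and 24590, 22327 and 18780 bp in Nur77_LPS. All LPS libraries lay above all untreated ones, a rise of 1.00 ± 0.14 (adjusted p = 0.0017) and 1.04 ± 0.14 (adjusted p = 0.0012). The domain of the paralogous cluster (Mir23a, Mir27a and Mir24-2) was 7534 bp wide, with changes of -0.41 (adjusted p = 0.53) and -0.25 (adjusted p = 0.79). Mir142, a haematopoietic microRNA, lay in a 16425 bp domain of Tspoap1 that fell by 0.56 on the log2 scale in the GFP line (adjusted p = 0.0019) and had -0.22 (adjusted p = 0.23) in the Nur77 line. Mir21a lay in a Vmp1 domain of 12455 bp with changes of 0.06 (adjusted p = 0.90) and 0.27 (adjusted p = 0.32).

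The comparison of the lines asked how domains differed between cells with induced Nur77 and cells with induced GFP. Without LPS 7 of the 1592 domains were wider in the Nur77 line (background 0.173%) and 26 narrower (background 0.450%). With LPS 4 were wider (background 0.0963%) and 14 narrower (background 0.273%). The median log2 difference of the domains was -0.05 untreated and 0.00 with LPS, beside 0.00 and 0.01 for all tested regions. Centred on the median domain in place of the median region, the untreated split became 7 wider and 12 narrower, and without the 3 libraries that stood apart the split with LPS became 20 wider and 8 narrower. It was 16 wider and 10 narrower without GFP_LPS replicate 3 alone. The totals were small and followed single libraries: the 33 untreated calls numbered 13, 15 and 17 without GFP_Ctrl replicate 1, 2 or 3 and 20 and 21 without Nur77_Ctrl replicate 1 or 2, and the 18 calls with LPS numbered 11 and 8 without Nur77_LPS replicate 2 or 3. Over all domains, 5 were longer in every Nur77 than in every GFP library (0.288%, background 0.220%) and 19 shorter (1.09%, background 1.48%).

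The largest gain in the untreated Nur77 line was at Bdp1, a subunit of the RNA polymerase III factor TFIIIB. Its domain, chr13:100092771-100104763, which holds the start shown above, covered 1175, 1330 and 1355 bp in GFP_Ctrl, 724, 1231 and 1423 bp in GFP_LPS, 10345, 6881 and 11952 bp in Nur77_Ctrl and 1628, 1445 and 1400 bp in Nur77_LPS. The untreated Nur77 libraries stood above all others. They exceeded GFP_Ctrl by 2.93 ± 0.14 (adjusted p = 8.1e-08), LPS in the Nur77 line brought a change of -2.65 ± 0.14 (adjusted p = 6.9e-08), and the LPS effects of the lines differed by -2.45 ± 0.19 (adjusted p = 5.0e-05). Raver1, which encodes an RNA-binding partner of the splicing regulator PTB, covered 1892, 1750 and 2084 bp in GFP_Ctrl and 10576, 7574 and 10059 bp in Nur77_Ctrl (log2 2.33 ± 0.15, adjusted p = 1.9e-06). With LPS the Raver1 domain covered 1123, 1923 and 2441 bp in GFP_LPS and 4987, 4588 and 3203 bp in Nur77_LPS (log2 1.29 ± 0.15, adjusted p = 0.0017), so the lines did not overlap in either state. Gramd1b, a cholesterol transfer gene, covered 3632, 3698 and 3748 bp in GFP_Ctrl, 3839, 4436 and 5444 bp in GFP_LPS, 10087, 7914 and 10214 bp in Nur77_Ctrl and 5578, 5376 and 5115 bp in Nur77_LPS (untreated difference 1.38 ± 0.09, adjusted p = 1.9e-06).

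Losses in the Nur77 line were led by Gm38414 and Entpd6. The domain of the predicted gene Gm38414 covered 11720, 10741 and 11090 bp in GFP_Ctrl, 4374, 4225 and 5160 bp in GFP_LPS, 1786, 698 and 1414 bp in Nur77_Ctrl and 2398, 1833 and 2240 bp in Nur77_LPS, and the lines did not overlap (untreated -3.16 ± 0.20, adjusted p = 4.7e-06, and with LPS -1.07 ± 0.20, adjusted p = 0.047). Entpd6, a nucleoside diphosphatase gene, covered 14360, 12844 and 14951 bp in GFP_Ctrl and between 934 and 2370 bp in every other library. It was lower by -2.72 ± 0.17 in the untreated Nur77 line (adjusted p = 1.6e-06) and by -3.32 ± 0.17 with LPS in the GFP line (adjusted p = 4.3e-08). The Atf3 and Egr1 domains were also shorter in the untreated Nur77 line, by -0.89 ± 0.15 (adjusted p = 0.019) and -0.88 ± 0.10 (adjusted p = 7.3e-04). With LPS they had -0.07 ± 0.15 (adjusted p = 0.95) and -0.22 ± 0.10 (adjusted p = 0.45). Egr1 covered 12275, 13495 and 12535 bp in GFP_Ctrl, 11850, 14031 and 14145 bp in GFP_LPS, 7288, 5305 and 7786 bp in Nur77_Ctrl and 12656, 11472 and 9862 bp in Nur77_LPS. Its LPS rise of 0.77 ± 0.10 (adjusted p = 4.8e-04) in the Nur77 line thus started from a shorter domain, while the difference between the lines' LPS effects, 0.67 ± 0.13, did not pass (adjusted p = 0.33).

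With LPS, the domain at Gpr146, an orphan receptor gene, was longer in the Nur77 line, at 4666, 4187 and 3325 bp against 1209, 1480 and 1847 bp (log2 1.46 ± 0.14, adjusted p = 6.2e-04). It was longer there without LPS too, at 4935, 4798 and 5058 bp against 2528, 2984 and 2171 bp (log2 1.00, adjusted p = 0.0053). The domain of Olfml3, a secreted glycoprotein gene, was shorter, at 4086, 3989 and 3727 bp against 6196, 8901 and 11619 bp (log2 -1.11 ± 0.14, adjusted p = 0.0020), while the untreated Olfml3 difference was -0.21 (adjusted p = 0.65) and that of the LPS effects did not pass (adjusted p = 0.42). Apobec1, the cytidine deaminase gene of RNA editing, had 2742, 3375 and 4882 bp in GFP_LPS and 8806, 7682 and 6365 bp in Nur77_LPS (log2 1.11 ± 0.12, adjusted p = 0.0010), with 7266, 7573 and 7781 bp in GFP_Ctrl and 8572, 4920 and 8475 bp in Nur77_Ctrl. A test of the difference between the lines' LPS effects called 5 of the 1592 domains, 3 with a higher LPS effect in the Nur77 line (Entpd6, Gm38414 and Apobec1; background 0.0120%) and 2 with a lower one (Bdp1 and Gramd1b; background 0.00803%). At an unadjusted p under 0.05 limma gave 127 (7.98%, background 4.59%).

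**Figure D4:**
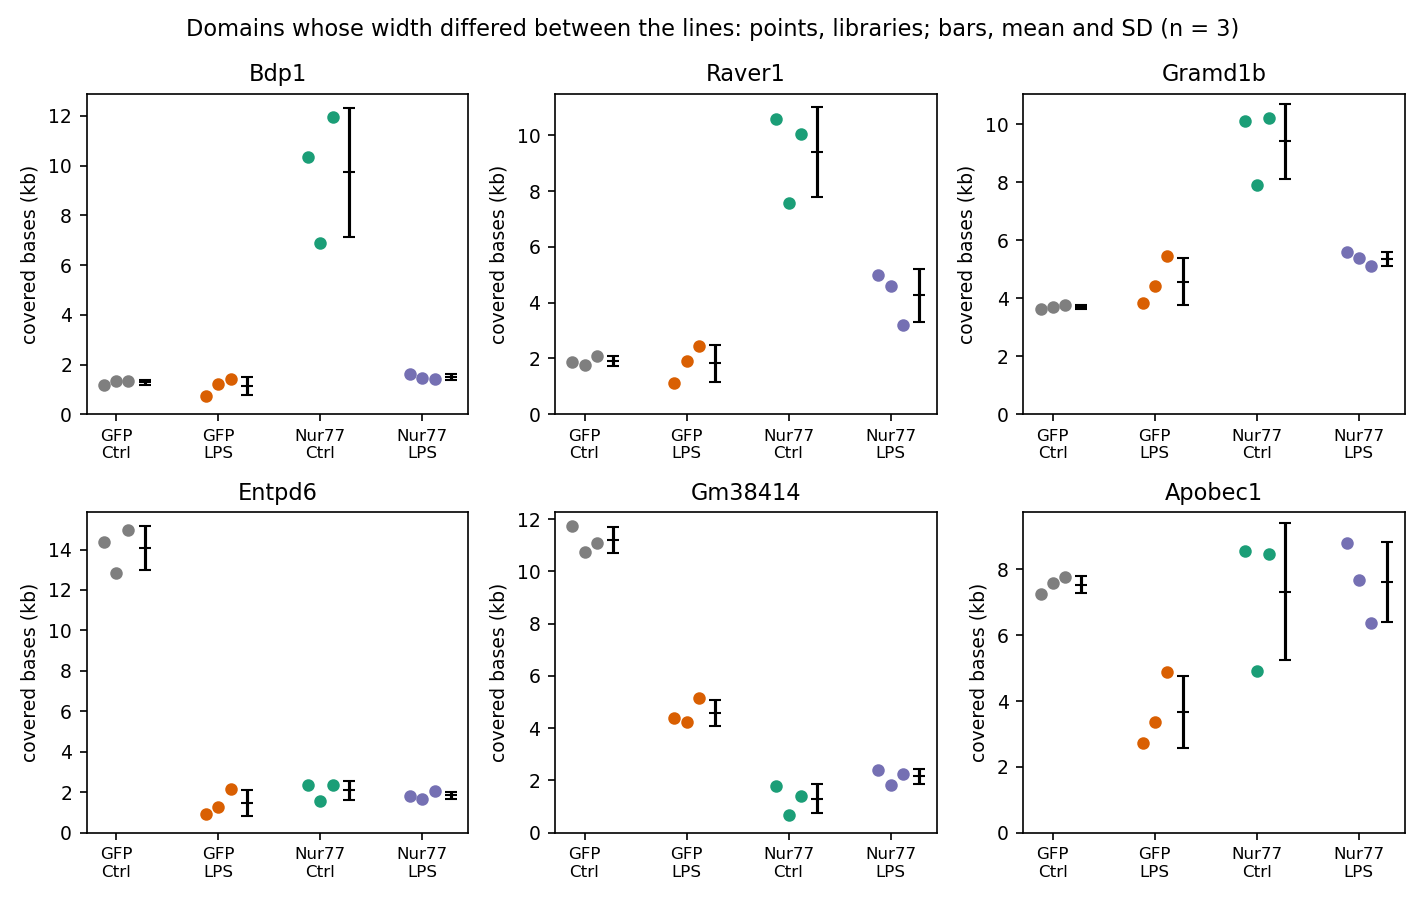
Covered length (kb, vertical axis) of 6 domains that differed between the lines, by group; points are libraries and bars are the mean and SD of 3 libraries. Bdp1, Raver1 and Gramd1b are longest in untreated Nur77 libraries, Entpd6 and Gm38414 in untreated GFP libraries, and Apobec1 is shortest in GFP libraries with LPS.

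Promoters inside domains had a higher median GC content than promoters at large. The 250 bases before the start had a median GC content of 62.0% and a median observed-to-expected CpG ratio of 0.723 for 1201 starts in domains, against 56.0% and 0.541 for all 19354 promoters, and 60.4% and 0.751 for 9182 starts in narrower regions. A GC box (GGGCGG, both strands) was found in 64.1% of the promoters in domains, 60.3% of those in narrower regions and 43.2% of all promoters. The NF-kB motif (both strands) was found in 7.49% of promoters in domains, 4.47% of those in narrower regions and 4.25% of all, in 4 of 40 of those in domains wider with LPS and in 1 of 55 of those in domains narrower with LPS. The NBRE motif of NR4A receptors (AAAGGTCA, both strands) was found in 0.500% of promoters in domains, 0.795% of those in narrower regions, 1.71% of those in no region and 1.2% of all. A match describes these letters and not a bound site, and promoters of neighbouring starts can overlap.

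Signs of possible mapping trouble were sought by position, height and gene family, and 23 of the 1738 domains (1.32%) carried at least 1. By position they were 6 within the first 3.2 Mb of a chromosome and 4 within 0.2 Mb of the end of its last annotated gene. A further sign of position, more than 50 kb from any gene, noncoding ones included, was met by 1. The mean percentile of the fold at the highest summit was in the top 0.1% in 11, and 3 lay at multicopy gene families. More than 1 sign was carried by 2 domains. Folds given here are those at the highest summit in each library. The highest folds were in the domain at the ribosomal RNA repeat genes AY036118 and Rn18s-rs5, chr17:39842997-39848829, which had the same 5833 bp in all 12 lists, with folds between 594 and 1403. The Sfi1 domain, 16003 bp near the start of chromosome 11, had folds between 228 and 599 and covered lengths from 9813 to 15861 bp. The 3 domains near the start of chromosome 17, whose nearest protein-coding gene is Scaf8, and 1 near Vmn1r2 were low, with folds of 3.98 to 12.5, and lay more than 50 kb from any protein-coding gene. Other high domains lay at protein-coding genes such as Ensa and H2-D1. Of the 23, 4 were called with LPS: Ptbp1 and Samd11 narrower, and the domains at Agrn and Isg15, an interferon-induced gene, and near Cntnap5c wider. Whether reads there were misplaced was not tested, as repeat content was not analysed here.

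**Figure D5:**
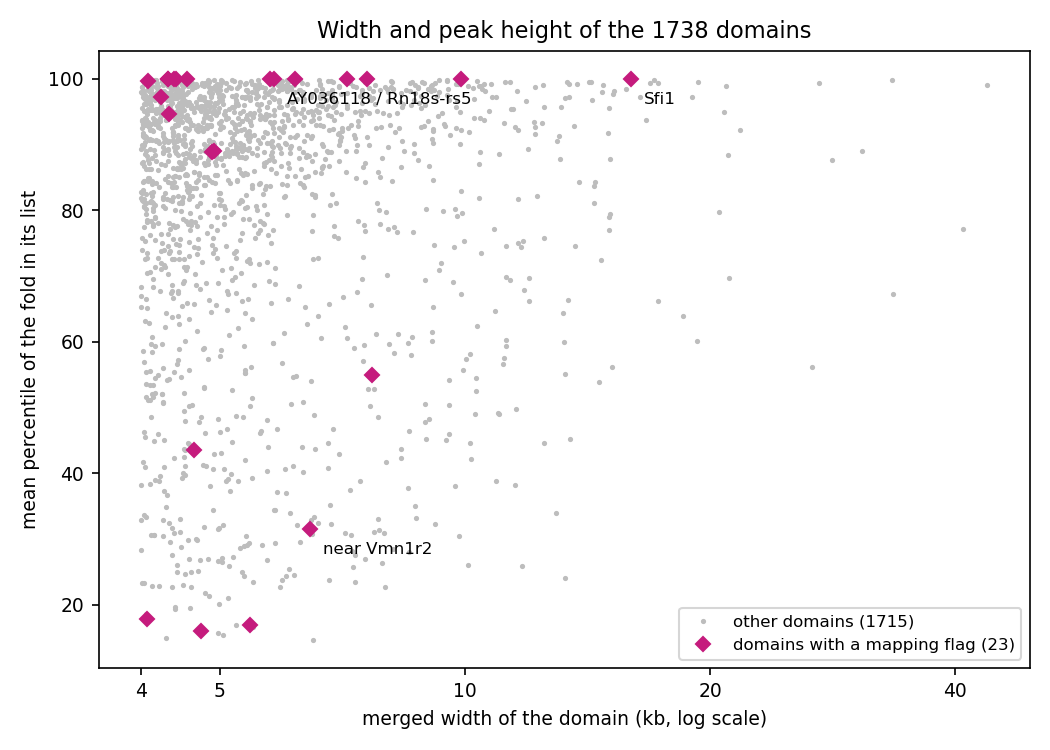
Merged width (kb, log axis) and mean percentile, within its list, of the fold at the highest summit for the 1738 domains. Diamonds mark the 23 with a sign of possible mapping trouble. Most diamonds lie at the top of the height scale, and a few, such as the one near Vmn1r2, lie low.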

How the data were processed

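The deposited files were peak lists of ATAC-seq in 12 libraries, 4 groups of 3. The submitters' processing notes name cutadapt 2.6, DiffBind 3.0.15 and the build mm10; neither the aligner nor the caller of the peaks is stated in the notes used here. Per the file headers, in this case the peak names, the authors kept reads of mapping quality 20, removed mitochondrial and duplicate reads and called peaks per library at a q value of 0.001. The authors' deposited columns hold a fold over background, a -log10 p and a -log10 q per summit and a score that is 10 times the -log10 q. Peaks sharing start and end were counted as 1 peak with several summits.

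Peaks were merged over the 18 chromosomes used, and the covered bases of each region in each library were counted. Regions with a peak in all 12 lists were tested with limma 3.58.1 (trend and robust, 4 group means, Benjamini-Hochberg adjusted p under 0.05) on log2 covered bases, each library centred on its median. The code was tested on simulated data. Read totals are unknown, so no counting interval was given; the background height, computed from the steps of the fold values, stood in for depth. Genes, starts and sequences came from RefSeq tables on GRCm38.p6, the assembly of mm10. By default a region takes the name of the coding gene it overlaps most, but some domains are named here after another gene they overlap. Among these, the domains named after Cxcl10, Ccl5, Cfl1, Gpr146 and Gapdh overlap Art3, Heatr9, Snx32, 3110082I17Rik and Iffo1 over more bases. Members, gene lists and marker lists were chosen with earlier results of these data known. Genes named were those of the 15 widest domains, the 10 most changed called domains per comparison, the 10 widest domains not in all lists, up to 15 with a mapping sign, 30 in gene lists and 3 on each side of the width limit; others (Rbm48, Tnf, Ccl3, Ccl9, Acod1, Cxcl2, Lif, Csf3, Spi1, Vasp, Srsf2, Pim1, and the steady, clustered, microRNA, single-treatment and single-line domains) were chosen after their values were seen. Alternatives were other centrings, filters, merging rules, single peaks, a replicate block and leaving out libraries.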

Additional observations from a re-analysis of the deposited data

Results flagged for a closer look

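In 5 domains the LPS effect differed between the lines by limma's interaction test, given here as the log2 LPS change in the Nur77 line minus that in the GFP line. The values were 3.18 ± 0.24 for Entpd6 (adjusted p = 4.0e-05), -2.45 ± 0.19 for Bdp1 (adjusted p = 5.0e-05), 2.10 ± 0.29 for Gm38414 (adjusted p = 0.033), -1.12 ± 0.13 for Gramd1b (adjusted p = 0.0034) and 1.15 ± 0.17 for Apobec1 (adjusted p = 0.033). All 5 domains differed between the untreated lines or between the lines with LPS. Without GFP_Ctrl replicate 1, 2 or 3, GFP_LPS replicate 1 or Nur77_LPS replicate 3, the test made 3 calls over the domains.

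Places outside the chromosomes described above also held regions of 4000 bp or more, merged in the same way. Chromosome 12 held 102 among 3593 regions (2.84%), the widest 17069 bp. Chromosomes X and Y held 11 among 1083 (1.02%), the widest 12319 bp. Unplaced and unlocalised contigs held 9 among 56 (16.1%), the widest 11225 bp.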

How the results depend on the processing

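The calls rest on 3 libraries a group and on covered length, and read totals are unknown. Called domains numbered 148 and 136 for LPS in the GFP and Nur77 lines, 33 and 18 for the lines untreated and with LPS, and 5 for the difference of LPS effects. Without centring they fell to 40 (27 wider, 13 narrower), 48 (37 and 11), 5, 1 and 1; the cause was not tested. With the widest single peak in place of covered length they were 69, 66, 13, 7 and 2. With lists of equal length they were 96 for LPS in the GFP line (61 wider, 35 narrower) and 11 for the lines with LPS. With regions in at least 3 lists and a pseudocount of 100 bp they were 18 for the untreated lines, 8 with LPS and 0 for the difference of LPS effects (33 by limma at an unadjusted p under 0.05); there 43 of 121 LPS calls in the GFP line and 60 of 124 in the Nur77 line were narrower, and the median of all regions moved to -0.72 for LPS in the Nur77 line, 0.77 for the untreated lines and -0.69 for the difference of LPS effects. Plain empirical Bayes gave 2 for the difference. Centred on the domains, the untreated lines gave 19. Without the 3 libraries apart in background height the lines with LPS gave 28 and the difference 9.

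Leaving out 1 library at a time gave 95 to 174 and 93 to 146 for LPS, 13 to 40 and 8 to 26 for the lines and 3 to 7 for the difference. For LPS in the GFP line the lowest, 95 and 96, came without GFP_Ctrl replicate 2 and 1. The number of domains of 4000 bp or more, 1738, ran from 1497 (without GFP_LPS replicate 3) to 1732. It was 917 at 5000 bp, and 833, 1112, 910 and 790 when merged within GFP_Ctrl, GFP_LPS, Nur77_Ctrl or Nur77_LPS alone. Of 45 results for named domains 0 reversed, 24 lost their call with at least 3 lists and a pseudocount, 19 without centring and 15 with the widest single peak, and those of Malt1, Oasl1, Gramd4 and Zc3h12c kept theirs under every alternative that gave a value.

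With the replicate number as a replicate block the calls were 125, 128, 28, 16 and 4, within 1.5 times the values above. The labels do not pair the numbers. Libraries of different groups were correlated over the tested regions after the mean of each group was subtracted per region. In what remained, 1 of 18 same-number pairs correlated above 0.1, and 5 of 12 libraries correlated best with their own number.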
